A study of Mus musculus with 4 samples.

Results

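Macrophages are read here through 10 genes: Gpnmb, Trem2, Spp1, Cd68 and Lgals3, which are known from lipid-loaded macrophages, Mrc1, Adgre1 and Csf1r, which mark tissue-resident macrophages, and Cd9 and Cd63, a pair of tetraspanins found in macrophages and in many other cells. They were taken by gene symbol, and all 10 were found among the 52125 genes of the table. RNA of the corpus, the large middle region of the stomach that makes acid, came from 4 wild-type C57BL/6 mice aged 6 to 8 weeks, with 1 mouse per library. The HDT group held 2 mice, which had received 5 mg of HDT per 20 g of body weight in a single intraperitoneal injection to damage the stomach, and the Vehicle group held 2 mice; both were sampled at 48 hr. HDT usually stands for high-dose tamoxifen in gastric injury work, but the labels give only the abbreviation, and they describe the controls both as vehicle-treated and as untreated. Tamoxifen kills the acid-secreting parietal cells in this use, and the whole corpus was taken, so a macrophage transcript is a small part of RNA from epithelium, stroma, muscle and blood cells together.

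Macrophages live in most tissues and take up dying cells and debris. Csf1r, the receptor for the growth factors CSF1 and IL-34, sustains them, and Adgre1 (F4/80) and Mrc1 (the mannose receptor CD206) are classical surface markers of resident cells. Where macrophages meet much lipid or cell debris, as in adipose tissue, plaques and damaged nerve, they take on a state described as lipid-associated, in which the lipid-sensing receptor Trem2, the glycoprotein Gpnmb, the secreted protein osteopontin (Spp1), the lysosomal protein Cd68, galectin-3 (Lgals3) and the tetraspanins Cd9 and Cd63 are abundant. Several of these genes are not restricted to macrophages: Lgals3, Cd9, Cd63 and Spp1 are also made by epithelial cells, Mrc1 by some endothelial cells, and Gpnmb by melanocytes and osteoclasts.

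The members were chosen with results of this comparison of HDT with Vehicle known, so their differences are described and not tested. Recovered depth ranged from 41536686 to 42674985 reads per library. Of 18285 genes tested, 37.7% differed between HDT and Vehicle (limma on log2 values, Benjamini-Hochberg adjusted p under 0.05), with 3368 higher and 3522 lower in HDT, and all 10 members were among the genes tested. Levels are in CPM, reads relative to an effective library size scaled by TMM, which assumes that most genes do not change. At the scaling used in the deposited table the median log2 fold change of all genes was 0.526, against -0.002 with TMM, and 92.0% of the calls were higher in HDT, against 48.9%. All changes below are therefore relative to the TMM median, and a change near 0 has no fixed direction. Markers of other corpus cells moved with the groups: the summed level of 7 parietal cell genes was 1829 and 1471 CPM in the HDT libraries, against 11870 and 13010 CPM in the Vehicle libraries, that of 6 chief and neck cell genes was 40790 and 30160 CPM in HDT, against 143400 and 175900 CPM in Vehicle, and that of 8 fibroblast genes was 1945 and 2182 CPM in HDT, against 1101 and 1087 CPM in Vehicle. Most of the fibroblast sum was Col1a1, Col1a2 and Col3a1, which were called higher, as were Pdgfra, Pdgfrb and Lum. Dcn had no call (log2 fold change 0.04), and Dpt was called lower (-0.45, limma adjusted p = 0.00118). The part of a change in cell make-up in the values below was not tested, and in bulk tissue more cells of a type and more RNA per cell cannot be told apart.

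The 10 genes differed widely in how far HDT stood from Vehicle. In HDT, Gpnmb, Trem2, Cd68 and Spp1 stood at 2.79 to 21.1 times their Vehicle level, Cd9 and Lgals3 at 1.57 and 1.32 times, Csf1r, Mrc1 and Adgre1 at 1.15 to 1.20 times, and Cd63 at 0.926 times. For 9 of the 10 genes each HDT library exceeded each Vehicle library, and the groups overlapped for Cd63. Over all genes tested 35.3% were separated in that direction and 70.8% in either. The fit over all genes called 7 of the 10 higher and 0 lower, beside 18.4% of all genes called higher and 19.3% called lower, and the median log2 fold change of the 10 was 0.524. Mrc1, Adgre1 and Cd63 had no call. Since the genes were picked on this contrast, these counts describe the choice and give it no weight.

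**Figure D1:**
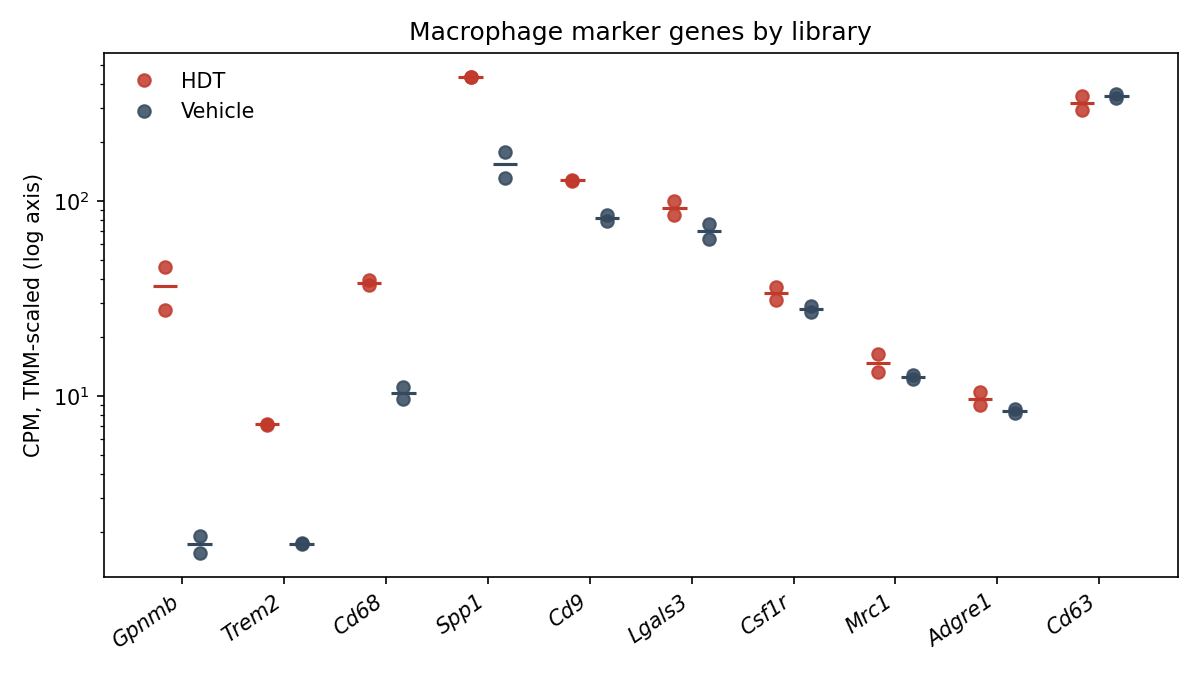
Level of each marker gene in CPM on a log axis, with 1 point per library, HDT in red left of Vehicle in dark blue, and a bar at the mean of 2 mice, ordered by fold change. Gpnmb, Trem2, Cd68 and Spp1 are widely apart between groups, whereas the points of Csf1r, Mrc1, Adgre1 and Cd63 lie close together or overlap.

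Gpnmb encodes a transmembrane glycoprotein of lysosomes and the cell surface that macrophages make when their lysosomes are loaded, and lies on chromosome 6 at 49036546 to 49070929 (GRCm38, GENCODE M21). It had 45.6 and 27.6 CPM in the HDT libraries, against 1.56 and 1.92 CPM in the Vehicle libraries. Both HDT libraries lay far above both Vehicle libraries, although the HDT mice differed from each other 1.65-fold. These levels rest on 2347 and 1394 reads in HDT and on 55 and 66 reads in Vehicle. The log2 fold change of 4.34 (SE 0.253) was the seventh highest among all genes tested.

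Trem2 encodes a receptor for lipids and lipoproteins that signals through the adaptor Tyrobp, and lies on chromosome 17 at 48346401 to 48354147. Its level was 7.17 and 7.11 CPM in HDT, against 1.76 and 1.74 CPM in Vehicle, with replicates of each group nearly equal. It had 369 and 359 reads in HDT and 62 and 60 reads in Vehicle, and a log2 fold change of 2.02 (SE 0.142). Trem2 was thus one of the least abundant of the 10 genes in both groups.

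Cd68 encodes a heavily glycosylated lysosomal membrane protein used as a stain for phagocytes, and lies on chromosome 11 at 69664213 to 69666153. It had 37.0 and 39.2 CPM in HDT, against 11.1 and 9.67 CPM in Vehicle, a log2 fold change of 1.87 (SE 0.091). The gap between groups was many times the difference within either pair of mice.

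Spp1 encodes osteopontin, a secreted protein that binds integrins and CD44, and lies on chromosome 5 at 104435118 to 104441050. Its level was 433 and 432 CPM in HDT, against 132 and 179 CPM in Vehicle, so the HDT mice were alike while the Vehicle mice differed 1.36-fold. The log2 fold change was 1.496 (SE 0.143). Spp1 shares 309 of its 1648 exonic bases with Gm42793 on the same strand, which had 1820 and 1435 reads in HDT and 329 and 477 reads in Vehicle; how reads in the shared stretch were assigned is not given in the sources used here.

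These 4 genes were those with a log2 fold change of at least 1 among the 10, where 4.97% of all genes tested reached it. Their promoters are shown because these genes differ most between groups: each line gives the 250 bases before the RefSeq start (GRCm38.p6), on the strand of the gene, with motif matches in capitals.
Gpnmb, chr6:49036268-49036517, plus strand: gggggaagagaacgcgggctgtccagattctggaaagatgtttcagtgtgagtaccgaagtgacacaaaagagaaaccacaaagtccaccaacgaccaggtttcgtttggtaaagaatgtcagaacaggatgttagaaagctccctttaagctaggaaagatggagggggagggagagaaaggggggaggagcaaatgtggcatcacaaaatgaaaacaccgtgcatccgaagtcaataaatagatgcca
Trem2, chr17:48346151-48346400, plus strand: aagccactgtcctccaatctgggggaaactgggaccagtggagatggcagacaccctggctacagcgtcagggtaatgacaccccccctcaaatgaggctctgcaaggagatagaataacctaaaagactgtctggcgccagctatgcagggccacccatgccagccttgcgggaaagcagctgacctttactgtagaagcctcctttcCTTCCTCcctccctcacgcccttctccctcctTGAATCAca
Cd68, chr11:69666171-69666420, minus strand: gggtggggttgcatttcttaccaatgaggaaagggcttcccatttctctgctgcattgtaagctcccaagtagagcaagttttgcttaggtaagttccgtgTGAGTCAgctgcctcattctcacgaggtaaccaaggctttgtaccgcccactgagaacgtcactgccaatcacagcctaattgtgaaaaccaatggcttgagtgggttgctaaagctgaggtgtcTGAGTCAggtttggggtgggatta
Spp1, chr5:104434861-104435110, plus strand: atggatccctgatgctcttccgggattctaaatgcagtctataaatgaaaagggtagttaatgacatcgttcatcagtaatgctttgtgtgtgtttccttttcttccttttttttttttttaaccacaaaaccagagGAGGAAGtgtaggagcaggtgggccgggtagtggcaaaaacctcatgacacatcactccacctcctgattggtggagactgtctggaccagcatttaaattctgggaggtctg

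Motifs were searched on both strands, and matches are given for the 250-base windows of 8 members. Member windows on chromosome 18, where Csf1r lies, were left out, and no window of Csf1r or Adgre1 is included. CACGTG is the core of the lysosomal CLEAR element bound by TFEB and TFE3, and CATGTG is the core bound by MITF. GAGGAAG is a site of the PU.1 type, and TGANTCA is the AP-1 site. The AP-1 letters stood 9 bases before the start of Trem2 and 149 and 24 bases before that of Cd68, and 6.75% of all 32851 windows hold them. The PU.1 letters stood 41 bases before the start of Trem2 on the opposite strand and 113 bases before that of Spp1, and also in the windows of Mrc1 and Cd63, so 4 of the members' 9 windows held them (Spp1 has a second window, not shown and without a match), and 10.6% of all windows do. CACGTG was in 0 of the 9 windows and in 6.02% of all windows, and CATGTG was in those of Mrc1 and Cd9 and in 12.3% of all. No match overlapped another, and the Gpnmb window held none of these letters. A match is only a run of letters, and these windows cover the start alone.

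Cd9 and Lgals3 were moderately higher. Cd9, a tetraspanin of the plasma membrane that organises integrins, lies on chromosome 6 at 125460266 to 125494791 and had 128 and 127 CPM in HDT, against 84.3 and 78.9 CPM in Vehicle. Its groups were clearly apart, with a log2 fold change of 0.65 (SE 0.063). Cd9 shares 218 of its 2044 exonic bases with Gm26728 on the opposite strand, which had 1053 and 915 reads in HDT and 488 and 422 in Vehicle, against 6607 and 6427 for Cd9 in HDT. Lgals3, a galactose-binding lectin secreted by macrophages and epithelium, lies on chromosome 14 at 47367751 to 47386160 and had 84.3 and 99.6 CPM in HDT, against 76.0 and 63.6 CPM in Vehicle. Here the lower HDT library was only slightly above the higher Vehicle library, and the log2 fold change was 0.40 (SE 0.112).

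With TMM, the markers of resident macrophages and Cd63 differed little. Csf1r, on chromosome 18, had 36.1 and 31.1 CPM in HDT, against 26.8 and 29.0 CPM in Vehicle (log2 fold change 0.26). Adgre1, an adhesion receptor on chromosome 17 at 57358691 to 57483527, had 10.4 and 8.96 CPM in HDT, against 8.18 and 8.62 CPM in Vehicle (log2 fold change 0.20). Mrc1, an endocytic receptor for mannose-bearing proteins on chromosome 2 at 14229392 to 14332057, had 13.2 and 16.3 CPM in HDT, against 12.3 and 12.8 CPM in Vehicle (log2 fold change 0.23). For these 3 genes the lowest HDT library exceeded the highest Vehicle library by less than the HDT mice differed from each other. At the deposited scaling their log2 fold changes were 0.80 for Csf1r, 0.73 for Adgre1 and 0.76 for Mrc1, where the median of all genes was 0.526. The size of their difference thus rests on the scaling. Cd63, a tetraspanin of late endosomes and secreted vesicles on chromosome 10 at 128900989 to 128912822, had 294 and 344 CPM in HDT, against 353 and 336 CPM in Vehicle, and the groups overlapped. Its log2 fold change was -0.11 with TMM and 0.42 at the deposited scaling, so its direction rests on the scaling. Csf1r shares 873 of its 5774 exonic bases with Hmgxb3 on the opposite strand, and the strand setting of the counting is not given. Hmgxb3 had 1223 and 1195 reads in HDT and 811 and 769 in Vehicle. Csf1r had 1855 and 1571 reads in HDT and 945 and 999 in Vehicle. The pseudogene Cd63-ps had 89 and 123 reads in HDT and 98 and 78 in Vehicle. Cd63 itself had 15113 and 17384 reads in HDT and 12424 and 11574 in Vehicle.

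A ratio of 2 genes within a library does not depend on the scaling. For each Csf1r read there were 1.27 and 0.887 Gpnmb reads in the HDT libraries, against 0.0582 and 0.0661 in the Vehicle libraries, a 17.3-fold difference of the means. For Trem2 the ratio was 0.199 and 0.229 in HDT, against 0.0656 and 0.0601 in Vehicle (3.40-fold), and for Cd68 it was 1.03 and 1.26 in HDT, against 0.415 and 0.333 in Vehicle (3.05-fold). These 3 genes thus differed per Csf1r read by several times the spread between mice.

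Spp1 had 12.01 and 13.9 reads per Csf1r read in HDT, against 4.91 and 6.16 in Vehicle (2.34-fold). Cd9 had 3.56 and 4.09 in HDT, against 3.14 and 2.72 in Vehicle (1.31-fold), with groups that did not overlap. Lgals3 and Mrc1 overlapped between groups on this scale. Adgre1 reads per Csf1r read were 0.289 and 0.288 in HDT, against 0.305 and 0.297 in Vehicle, so these receptors stood in nearly the same proportion in all 4 mice (0.958-fold between means). Cd63 had 8.15 and 11.1 reads per Csf1r read in HDT, against 13.2 and 11.6 in Vehicle (0.777-fold). With Adgre1 in place of Csf1r the folds were 18.1 for Gpnmb, 3.55 for Trem2, 3.19 for Cd68 and 2.44 for Spp1.

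**Figure D2:**
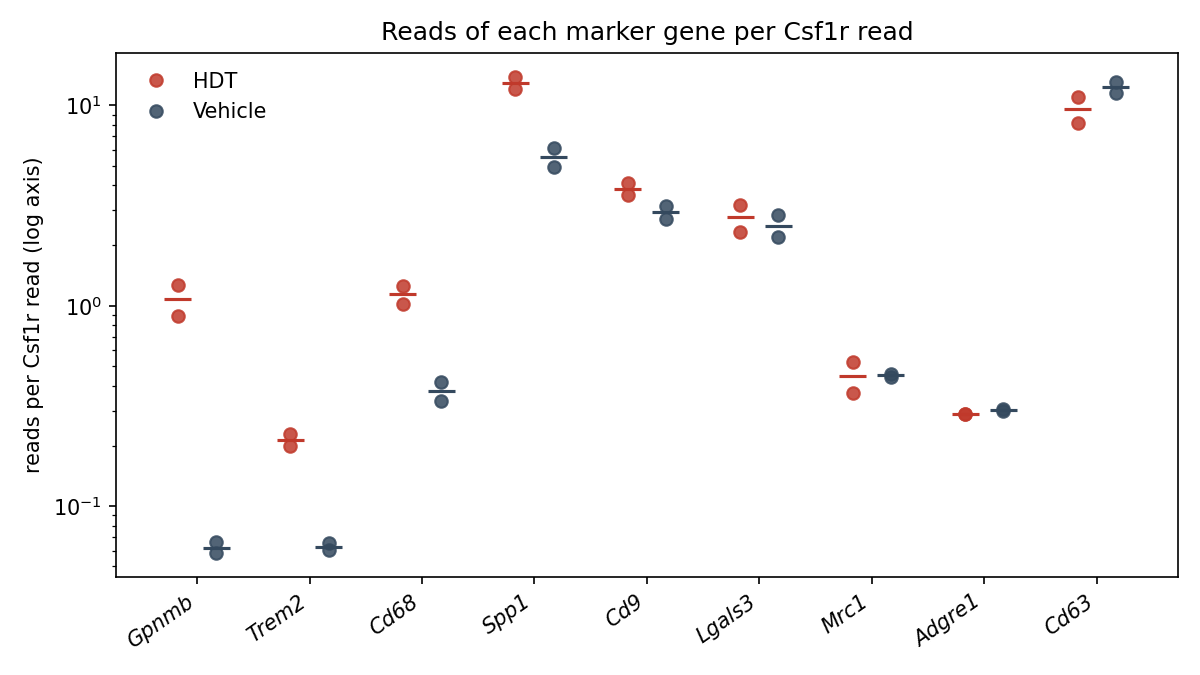
Reads of each gene per Csf1r read on a log axis, with 1 point per library, HDT in red left of Vehicle in dark blue, and a bar at the mean of 2 mice. Gpnmb is at 1.27 and 0.887 in HDT, against 0.0582 and 0.0661 in Vehicle, whereas Mrc1 and Lgals3 overlap between groups.

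Levels can be set against each other only per length, and CPM was divided by the kilobases of annotated exon for this. This length joins the exons of all annotated transcripts of a gene, such as 4946 bases for Trem2 and 3682 for Cd63. It can exceed the length of the transcript that is expressed, so the order below depends on the annotation. In HDT the order per kilobase was Spp1 at 263 ± 0.292 CPM, Cd63 at 86.7 ± 9.72, Cd9 at 62.6 ± 0.387, Lgals3 at 49.5 ± 5.83, Cd68 at 30.3 ± 1.22, Csf1r at 5.82 ± 0.605, Gpnmb at 5.62 ± 1.96, Adgre1 at 2.99 ± 0.320, Mrc1 at 2.32 ± 0.345 and Trem2 at 1.44 ± 0.00877 CPM per kilobase (SD, n = 2). Only Csf1r and Gpnmb overlapped as neighbours in this order. In Vehicle, Spp1 at 94.2 ± 20.2 overlapped Cd63 at 93.6 ± 3.24, Cd9 at 39.9 ± 1.90 overlapped Lgals3 at 37.6 ± 4.71, and Cd68 followed at 8.28 ± 0.825, Csf1r at 4.84 ± 0.265, Adgre1 at 2.60 ± 0.0966, Mrc1 at 1.97 ± 0.0624, Trem2 at 0.354 ± 0.00273 and Gpnmb at 0.267 ± 0.0384 CPM per kilobase (SD, n = 2). By this length Gpnmb was the lowest of the 10 in Vehicle, and in HDT its range overlapped that of Csf1r. Spp1, Cd63, Cd9 and Lgals3 stood far above the macrophage receptors Csf1r, Adgre1 and Mrc1 in all 4 libraries.

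The gene lists below, like the 10 members, were chosen with earlier results of these data known. Their counts, shares and p-values are therefore a description and no independent support. Genes of the lipid-associated programme other than the 10, a list of 36 cathepsins, lipid handlers and surface receptors, were tested in the same fit over all genes. Of 35 with enough reads, 15 were higher in HDT (42.9%, beside 18.4% of all genes), 5 were lower (14.3%, beside 19.3%) and 15 had no call, with a median log2 fold change of 0.33 beside -0.002 over all genes. The macrophage elastase Mmp12 had 27.0 and 43.3 CPM in HDT, against 3.01 and 3.83 CPM in Vehicle (log2 fold change 3.32, SE 0.258, limma adjusted p = 0.000681). Leaving out 1 library gives an arm of 1 mouse, assumed to vary like the other group. Fewer genes were then called over all genes as well, so list counts from such fits do not set a list apart. Without Vehicle replicate 1 the fold change of Mmp12 was 3.14 (limma adjusted p = 0.0754) and without replicate 2 it was 3.49 (limma adjusted p = 0.0726), about as large but not called, with the spread then taken from the HDT pair. Itgax (CD11c), an integrin of dendritic cells and lipid-associated macrophages, rose to 16.99 and 16.8 CPM in HDT, against 2.73 and 2.87 CPM in Vehicle (2.58, limma adjusted p = 4.02e-06).

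Of the genes that bring lipid into cells, lipoprotein lipase, Lpl, fell to 72.2 and 85.9 CPM in HDT, against 509 and 560 CPM in Vehicle (log2 fold change -2.76, limma adjusted p = 2.34e-06). The fatty acid transporter Cd36 (-1.51), whose gene, like Lpl, is used by muscle and fat as well, was also called lower. The other genes called lower were Fabp4, Npc2 and Pld3, whose sign turns at the deposited scaling (0.11, 0.04 and 0.22). At that scaling 30 genes of the list were called higher and 2 lower, beside 62.8% of all genes called higher and 5.46% lower, and without Vehicle replicate 2 the lower genes numbered 3. Apoe, the lipoprotein component that macrophages secrete, was at 241 ± 44.0 CPM in HDT and 190 ± 3.45 CPM in Vehicle (SD, n = 2, limma adjusted p = 0.0739).

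**Figure D3:**
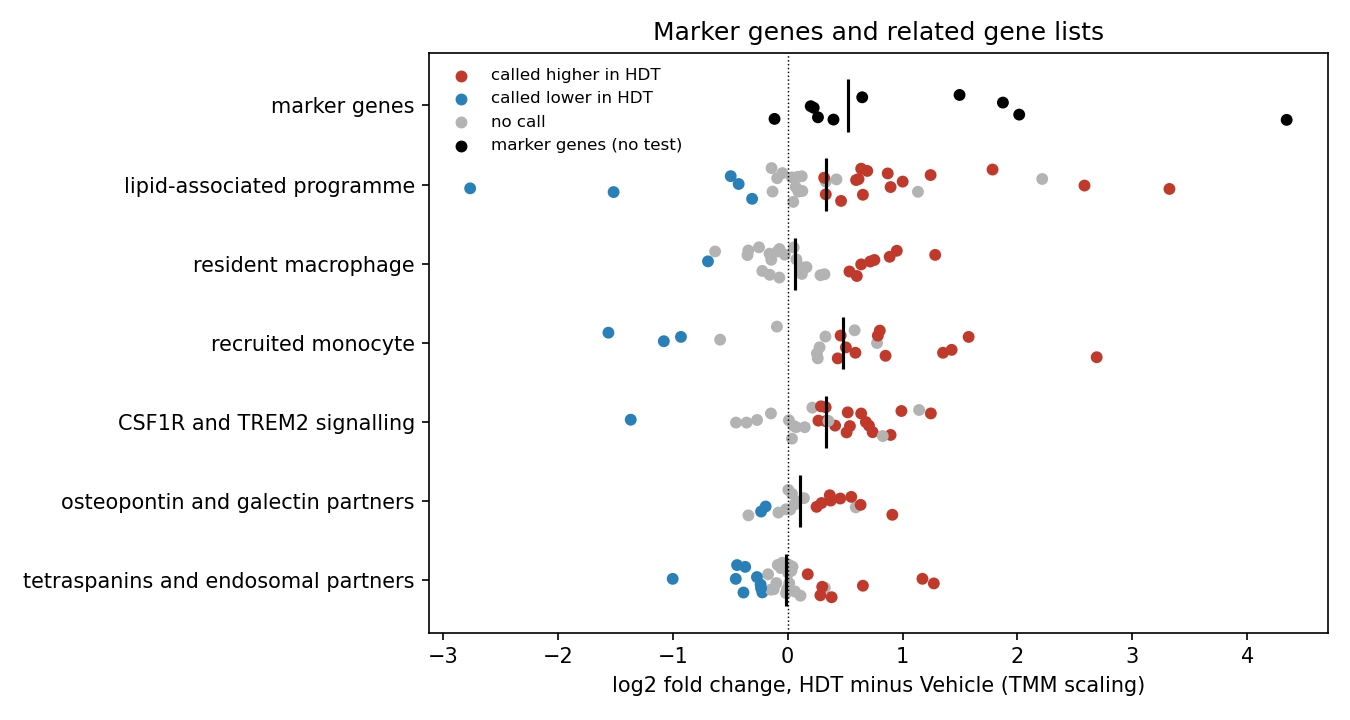
Log2 fold change, HDT minus Vehicle with TMM scaling, of the 10 marker genes (black, not tested) and of the tested genes of 6 related lists, with a vertical bar at each median. The lipid-associated programme spans -2.76 (Lpl) to 3.32 (Mmp12), and the tetraspanin list is centred near 0.

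Of 28 tested genes of resident macrophages, 8 rose (28.6%, beside 18.4% of all genes), 1 fell (3.57%, beside 19.3%) and 19 passed no threshold, with a median log2 fold change of 0.06. The complement genes C1qa, C1qb and C1qc, products of resident macrophages, were among the higher ones: C1qc had 42.6 and 39.3 CPM in HDT, against 22.6 and 21.6 CPM in Vehicle (0.89, limma adjusted p = 7.66e-05). The sialic acid receptor Siglec1 rose to 3.93 and 3.69 CPM in HDT, against 1.34 and 1.80 CPM in Vehicle (1.28, limma adjusted p = 0.00157). Genes of the long-lived, perivascular resident type had no call: Lyve1 was at 9.24 ± 1.90 CPM in HDT and 11.6 ± 0.525 CPM in Vehicle, Folr2 at 1.69 ± 0.633 CPM in HDT and 1.76 ± 0.562 CPM in Vehicle, and Timd4 at 0.286 ± 0.157 CPM in HDT and 0.272 ± 0.0567 CPM in Vehicle (SD, n = 2). Selenop, a selenium carrier made by many cells, was the gene called lower. Leaving out HDT replicate 1 gave 2 lower genes, leaving out HDT replicate 2 gave 3, and at the deposited scaling (62.8% of all genes higher) 17 were called higher and 0 lower.

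Of 22 tested genes of recruited monocytes, 11 were higher (11 of 22, beside 18.4% of all genes), 3 were lower (13.6%, beside 19.3%) and 8 had no call, with a median of 0.48. Chil3, a chitinase-like protein of activated macrophages, rose to 1.94 and 2.14 CPM in HDT, against 0.256 and 0.348 CPM in Vehicle (2.69, limma adjusted p = 0.000213). Lysozyme 2 (Lyz2) had 209 and 146 CPM in HDT, against 60.9 and 69.0 CPM in Vehicle (1.43, limma adjusted p = 0.00963), and the call was lost when Vehicle replicate 1 (1.33, limma adjusted p = 0.0595) or replicate 2 (1.51, limma adjusted p = 0.0605) was left out. The monocyte marker Ly6c2 fell to 0.467 and 0.674 CPM in HDT, against 1.73 and 1.66 CPM in Vehicle (-1.56, limma adjusted p = 0.00263), and the cytokine Il1b and the arginase Arg1 were the other lower genes. The lower genes numbered 1 without Vehicle replicate 1 or HDT replicate 2, and 1 at the deposited scaling. Ccr2, the chemokine receptor that brings monocytes into tissue, was at 4.53 ± 0.189 CPM in HDT and 3.78 ± 0.201 CPM in Vehicle (SD, n = 2, limma adjusted p = 0.175).

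Among 29 tested genes around CSF1R and TREM2, 15 rose (51.7%, beside 18.4% of all genes), 1 fell (3.45%, beside 19.3%) and 13 passed no threshold, with a median of 0.33. Of the ligands of Csf1r, Csf1 rose to 16.8 and 18.4 CPM in HDT, against 14.4 and 13.5 CPM in Vehicle (0.33, limma adjusted p = 0.0199), a call lost when Vehicle replicate 2 (0.29, limma adjusted p = 0.0864) or HDT replicate 2 (0.28, limma adjusted p = 0.0886) was left out. Il34 was at 1.93 and 1.86 CPM in HDT, against 2.36 and 2.21 CPM in Vehicle (limma adjusted p = 0.273). Tyrobp, the adaptor of Trem2, rose to 16.1 and 13.7 CPM in HDT, against 7.98 and 7.96 CPM in Vehicle (0.90, limma adjusted p = 0.000492). Hcst, a related adaptor, was low in both groups, at 0.292 and 0.337 CPM in HDT, against 0.568 and 0.290 CPM in Vehicle.

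Spi1, which encodes PU.1, the factor that sets myeloid identity and drives Csf1r, rose by 0.51 on the log2 scale (limma adjusted p = 0.017), a call lost without HDT replicate 1 (0.43, limma adjusted p = 0.0864). Csf2ra, a subunit of the GM-CSF receptor, rose to 6.65 and 6.42 CPM in HDT, against 2.73 and 2.76 CPM in Vehicle (1.25, limma adjusted p = 0.000259). Csf2rb, its signalling partner, rose by 0.99 (limma adjusted p = 0.0109) and lost its call when HDT replicate 1 was left out (0.67, limma adjusted p = 0.0513).

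The 4 factors of the MITF family, which bind lysosomal gene promoters and are known to drive Gpnmb, differed in direction. Mitf itself was the gene called lower, at 6.47 and 5.01 CPM in HDT, against 13.4 and 16.2 CPM in Vehicle (-1.37, limma adjusted p = 0.000384, and -0.83 at the deposited scaling). Tfe3 was at 40.4 and 40.4 CPM in HDT, against 32.7 and 33.3 CPM in Vehicle (0.29, limma adjusted p = 0.0084), a call lost without Vehicle replicate 1 (0.27, limma adjusted p = 0.0517). Tfeb was at 11.6 and 12.1 CPM in HDT, against 13.8 and 12.5 CPM in Vehicle (-0.15, limma adjusted p = 0.265, and 0.39 at the deposited scaling). Tfec, the member most restricted to macrophages, was at 0.622 and 0.515 CPM in HDT, against 0.341 and 0.174 CPM in Vehicle (1.14, limma adjusted p = 0.0632), and was called without Vehicle replicate 1 (1.59, limma adjusted p = 0.0222). At the deposited scaling 25 genes of this list were called higher (62.8% of all genes), and without Vehicle replicate 2 the lower genes numbered 2.

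Of 20 tested receptors and relatives of osteopontin and galectin-3, 8 were higher (8 of 20, beside 18.4% of all genes), 2 were lower (2 of 20, beside 19.3%, both with a positive fold change at the deposited scaling) and 10 had no call, with a median of 0.11. Cd44, a receptor for osteopontin and hyaluronan, rose to 23.3 and 27.5 CPM in HDT, against 14.9 and 12.1 CPM in Vehicle (0.91, limma adjusted p = 0.00111). The integrin subunits of the osteopontin receptor, Itgav at 46.6 and 50.01 CPM in HDT, against 47.5 and 48.7 CPM in Vehicle, and Itgb3 at 9.43 and 11.5 CPM in HDT, against 12.1 and 8.04 CPM in Vehicle, overlapped between groups. Lgals3bp, a secreted partner of galectin-3, had 613 and 822 CPM in HDT, against 503 and 416 CPM in Vehicle (0.64, limma adjusted p = 0.0372), a call lost without Vehicle replicate 2 (0.49, limma adjusted p = 0.0603) or HDT replicate 2 (0.44, limma adjusted p = 0.0932). Itga8, an integrin subunit of fibroblasts and muscle cells, rose by 0.55 (limma adjusted p = 0.0209) and lost its call when Vehicle replicate 2 (0.49, limma adjusted p = 0.0723) or HDT replicate 2 (0.45, limma adjusted p = 0.101) was left out. The other galectins Lgals1, Lgals2, Lgals4 and Lgals9 had no call, and Lgals8 and Lgals12 rose by 0.38 and 0.37. The higher genes numbered 3 with replicate number as a block (12.9% of all genes) and 18 at the deposited scaling (62.8%). Fewer higher and fewer lower genes were called with 1 library left out, as over all genes.

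The calls among relatives of Cd9 and Cd63 were near the shares of all genes. Of 33 tetraspanins, their partners and endosomal membrane proteins, 7 were higher (21.2%, beside 18.4% of all genes), 9 were lower (27.3%, beside 19.3%) and 17 had no call, with a median of -0.01. Of the 9 lower genes 8 had a positive fold change at the deposited scaling. Cd81, a tetraspanin related to Cd9, was at 96.6 and 95.4 CPM in HDT, against 129 and 131 CPM in Vehicle (-0.44, limma adjusted p = 0.000718, but 0.09 at the deposited scaling). Tspan12 fell to 6.61 and 5.94 CPM in HDT, against 13.6 and 11.6 CPM in Vehicle (0.498 of the Vehicle mean, limma adjusted p = 0.000491). Tspan33 rose to 34.0 and 29.6 CPM in HDT, against 13.8 and 14.4 CPM in Vehicle (1.17, limma adjusted p = 4.99e-05), and Timp1, a metalloproteinase inhibitor that binds CD63, to 4.86 and 6.40 CPM in HDT, against 2.27 and 2.32 CPM in Vehicle (1.27, limma adjusted p = 0.000855). The higher genes numbered 4 without HDT replicate 2, and the lower genes 5 without either Vehicle library. At the deposited scaling 29 were called higher and 1 lower, beside 62.8% and 5.46% of all genes.

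Markers of the myeloid lineage and of other cells were read beside these values. Of 12 lineage genes 10 were called higher and 0 lower, beside 18.4% and 19.3% of all genes. Among those called higher, Itgam, Lyz2, Cd14, Spi1 and Csf2ra were already counted in the monocyte or the CSF1R and TREM2 list above. The summed level of the 12 genes was 388 and 299 CPM in HDT, against 154 and 163 CPM in Vehicle. Without Lyz2 it was 180 and 154 CPM in HDT, against 93.0 and 94.3 CPM in Vehicle. Ptprc (CD45), a marker shared by white blood cells, was at 7.93 and 6.72 CPM in HDT, against 7.44 and 6.88 CPM in Vehicle (limma adjusted p = 0.881). In no other blood cell list were more than 2 genes called in either direction, but some of these lists had few genes with enough reads for a test. Tested were 4 of 10 neutrophil, 2 of 14 lymphocyte and 2 of 7 eosinophil genes. For dendritic cells 8 of 9 and for mast cells 10 of 10 were tested. More than 2 calls were thus not possible for lymphocytes and eosinophils. Of 10 neutrophil genes, Elane had 0 reads in all libraries and the sum was 4.45 and 2.16 CPM in HDT, against 3.86 and 2.87 CPM in Vehicle. The 9 dendritic cell genes summed to 4.92 and 4.85 CPM in HDT, against 4.38 and 4.82 CPM in Vehicle, and 7 eosinophil genes to 3.91 and 3.96 CPM in HDT, against 4.46 and 3.08 CPM in Vehicle. The 14 lymphocyte genes summed to 10.1 and 8.18 CPM in HDT, against 5.85 and 5.28 CPM in Vehicle, most of it Cd4, which monocytes and macrophages can also carry. The other 13 lymphocyte genes summed to 1.40 and 1.585 CPM in HDT, against 2.50 and 1.945 CPM in Vehicle. The 10 mast cell genes summed to 40.4 and 54.6 CPM in HDT, against 150 and 102 CPM in Vehicle, with Kit and Ms4a2 called lower. Without Kit, which other corpus cells also express, the sums were 29.5 and 40.6 CPM in HDT, against 92.7 and 40.9 CPM in Vehicle.

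For the other known sources of Gpnmb, the melanocyte gene Tyr and the osteoclast gene Calcr had 0 reads in all libraries, and the 6 melanocyte genes summed to 8.59 and 9.43 CPM in HDT, against 8.78 and 7.32 CPM in Vehicle. Of these, Pmel (log2 fold change 0.335) and Sox10 (-0.28) were tested and had no call. Dct, too low to be tested, had 8 and 5 reads in HDT, against 1 and 1 in Vehicle. The 7 osteoclast genes summed to 90.7 and 93.0 CPM in HDT, against 62.2 and 63.3 CPM in Vehicle, nearly all of it Acp5, an acid phosphatase that macrophages also make. Acp5 was called higher (log2 fold change 0.58, limma adjusted p = 0.000213). The other osteoclast genes tested, Ocstamp (1.03), Ctsk (0.33) and Mmp9 (-0.335), had no call. The 9 endothelial genes, read for Mrc1, summed to 140 and 124 CPM in HDT, against 125 and 147 CPM in Vehicle, and the 6 surface mucous cell genes, read for Lgals3, Cd9 and Cd63, to 65730 and 80610 CPM in HDT, against 123300 and 120400 CPM in Vehicle. The part of these cells in the values of the 10 genes was not tested.

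The genes with a pattern most like each of 3 members were sought among 11848 genes whose higher group reached 5 CPM, by the Euclidean distance of centred log2 CPM over the 4 libraries. For Gpnmb these were Dmbt1 (distance 0.669), Pigr (1.00) and Gm45836 (1.06). For Mrc1 they were Camsap3 (0.0243), Agmo (0.0401) and Sh3rf2 (0.0408), and for Csf1r Unk (0.0129), Ankrd52 (0.0131) and Lrfn3 (0.0219). With 4 libraries the measure separates few patterns.

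**Figure D4:**
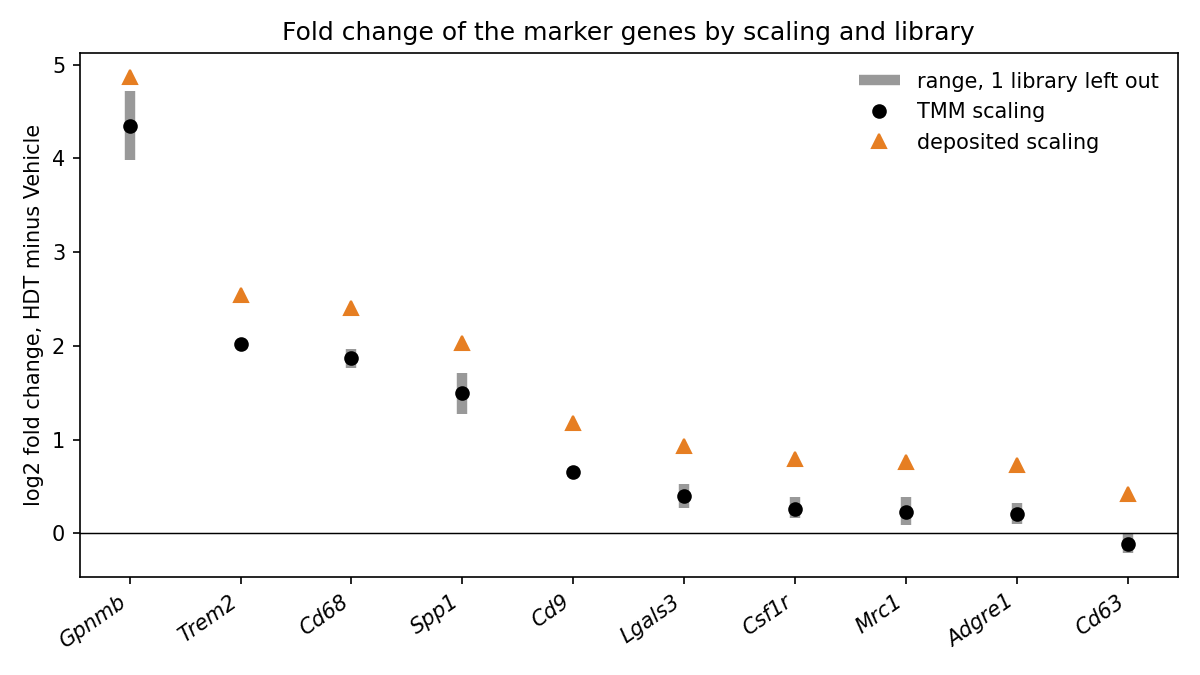
Log2 fold change of each marker gene, HDT minus Vehicle, with TMM scaling (circles), at the deposited scaling (triangles) and over the 4 fits that leave out 1 library (grey bars). Cd63 is the gene whose sign differs between scalings, at -0.11 with TMM and 0.42 at the deposited scaling.

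Across the fits that left out 1 library, the log2 fold change ran over 3.99 to 4.72 for Gpnmb and stayed above 1 for Trem2, Cd68 and Spp1. These calls, like those with all libraries, describe genes picked on this contrast. The Gpnmb call was lost without Vehicle replicate 2, that of Spp1 without either HDT library, that of Lgals3 without Vehicle replicate 2 or HDT replicate 2, and that of Csf1r without Vehicle replicate 1 or HDT replicate 1. Without HDT replicate 1 Mrc1 was called higher, and without HDT replicate 2 Cd63 was called lower. The members called higher numbered 6 without Vehicle replicate 1 (13.4% of all genes), 5 without Vehicle replicate 2 (14.4%), 6 without HDT replicate 1 (13.9%) and 5 without HDT replicate 2 (14.5%, with 16.2% of all genes called lower). With the size factors of DESeq2 the count was 6, without Csf1r (18.4% of all genes), with replicate number as a block it was 5 (12.9%), and at the deposited scaling it was 10 (62.8%).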

How the data were processed

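Corpus RNA was isolated with RNeasy kits, treated with DNase and sequenced by BGI, per the labels' protocols. The submitters' processing notes name GRCm38 (mm10), edgeR, Subread 2.0.0, featureCounts and STAR 2.7.1a, without order; annotation and strand setting are not given. The deposited values are a normalized signal: whole reads per gene times 1 factor per library (1.11 to 1.14). Dividing by that factor returned whole reads, within 0.01, in 100% of nonzero cells. Genes were kept by filterByExpr (18285 genes). The values were divided by column totals times TMM factors (1.22 and 1.18 for HDT, 0.848 and 0.818 for Vehicle) and put on the log2(value + 1) scale, which understates the change of low genes. HDT was compared with Vehicle by limma 3.58.1 (R 4.3.3) with trend and robust moderation, two-sided, Benjamini-Hochberg adjusted over all genes; edgeR 4.0.16 and DESeq2 1.42.0 on the recovered reads were alternatives. With the labels giving 1 mouse per library and 2 libraries per group, p-values measure the spread between mice, moderated over genes. The members and lists were chosen with earlier results of these data known. The 6 lists share Tyrobp, Csf1, Lgals1 and Lamp1 among themselves. The myeloid lineage markers share Itgam, Lyz2, Cd14, Spi1 and Csf2ra with them. Named genes were the 10 members, the 3 most changed called genes of each list with at least 1 CPM, the direct partners of a member, and the likest patterns; other genes named were chosen after their values were seen. 1 gene that this rule names is not reported here. The fit was tested on simulated data. Gene positions and exon lengths are from GENCODE M21, and promoters from RefSeq (GRCm38.p6). Intervals of reads were not used; precision rests on 2 mice per group.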

Additional observations from a re-analysis of the deposited data

How the results depend on the processing

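The alternatives were 4 scalings, 2 filters, 2 pseudocounts, 2 count tests, a replicate block and 4 fits with 1 library left out. The cause of each change below was not tested. At the deposited scaling 11483 genes were called higher and 998 lower. There the lipid-associated programme had 30 higher and 2 lower genes, the resident macrophage list 17 and 0, the CSF1R and TREM2 list 25 higher, the osteopontin and galectin list 18 and 0, the tetraspanin list 29 and 1, and the monocyte list 1 lower. Those counts stand beside 62.8% of all genes higher and 5.46% lower. Signs of genes named in the text turned there for Cd63 (0.42), Il34 (0.26), Hcst (0.15), Tfeb (0.39), Cd81 (0.092), Fabp4 (0.11), Npc2 (0.04), Pld3 (0.22), Lyve1 (0.19), Folr2 (0.45), Timd4 (0.47), Lgals2 (0.19) and Lgals4 (0.45), and for other list genes not named. They also turned for the markers of other cells Sox10 (0.24), Mmp9 (0.19) and Dpt (0.08). DESeq2 on recovered reads called 14.6% of all genes higher and 16.1% lower. It gave 9 higher genes around CSF1R and TREM2, and 5 higher and 1 lower in the osteopontin and galectin list. That list had 1 lower gene with upper-quartile scaling and with no low-count filter. With the replicate block it had 3 higher and 0 lower genes, the tetraspanin list had 5 lower, and 2357 genes were called higher and 2625 lower in all. Replicate numbers do not pair the mice by the labels, and the deviations of same-numbered libraries correlated at -0.278 across genes.

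With 1 library left out, the lone library of an arm is assumed to vary like the other group. Fewer genes were called over all genes too in each of these fits, so a smaller list count does not single out a list. The 10 marker genes had 0 to 1 lower calls, the lipid-associated programme 3 to 6 lower, the resident list 1 to 3 lower, the monocyte list 1 to 4 lower, and the CSF1R and TREM2 list 1 to 2 lower. The osteopontin and galectin list had 4 to 6 higher and 0 to 1 lower genes, and the tetraspanin list 4 to 7 higher and 5 to 9 lower. Among the genes named by the rule above, the sign of the log2 fold change differed among these fits for Cd63 (-0.213 to 0.006), Hcst (-0.823 to 0.099), Itgav (-0.029 to 0.062) and Itgb3 (-0.221 to 0.366), none of which had a call with all 4 libraries. The signs of other genes named in the text were not compared across these fits. Depth limits genes at a few reads, such as Timd4 and Hcst, and 2 mice per group limit the rest.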
